A study of Mus musculus with 2 samples.

Results

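The cells described here are the 15% of each library of sorted hematopoietic stem cells (HSCs) with the largest share of single-cell ATAC-seq fragments around 10 myeloid genes, Mpo, Elane, Ctsg, Csf1r, Csf3r, Cebpa, Cebpe, Irf8, Gfi1 and S100a8. A cell's score was the number of its fragments in the gene body with 10 kb on either side, over all 10 genes, divided by its unique fragments. The choice gave 733 of 4887 young HSCs and 511 of 3405 aged HSCs, or 1244 of 8292 cells. These cells are called members, and the remaining 4154 young and 2894 aged HSCs are called other cells. The members were selected on measured values, so a high level at the 10 genes is a product of the choice and was not tested.

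HSCs give rise to all blood lineages, and granulocytes and monocytes form along a path in which PU.1 and C/EBP factors open the enhancers of granule protein and cytokine receptor genes. Cebpa starts the granulocyte-monocyte program, Cebpe and Gfi1 direct the maturation of neutrophils, and Irf8 directs that of monocytes and dendritic cells. Mpo, Elane and Ctsg encode proteins of the primary granules, S100a8 encodes an abundant cytosolic protein of neutrophils, and Csf1r and Csf3r encode the receptors for M-CSF and G-CSF. ATAC-seq records where a transposase can cut, so accessibility near a gene can precede or lack expression of that gene.

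Both libraries were made from bone marrow HSCs of C57BL/6 mice, with 1 library from young mice of 10 weeks and 1 from aged mice of 20 months. The surface markers were CD150+, CD48-, CD34- and Flt3- within the Lin-, IL-7-, Sca-1+ and c-kit+ cells as the labels write them (the methods stain for the receptor, IL-7Rα), a gate that keeps most committed myeloid progenitors out, and nuclei went through the Chromium Next GEM Single Cell ATAC v1.1 chemistry. How many mice gave each library, and whether the libraries were prepared together, is not given in the sources used here. With 1 library per age there was no biological replicate and no test between ages or between cells was possible. Intervals of ratios and shares below are 95% intervals for counting error only. They are too narrow where several fragments of 1 cell come from the same open stretch. The 95% intervals of medians rest instead on the order of the values across genes or peaks.

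The filtered cells held 50069575 young and 38663214 aged fragments, and 26 cell barcodes occurred in both libraries. Members were shallower than other cells, with a median of 9446 against 9957 fragments in young HSCs and 9515 against 11310 in aged HSCs. Among the shallowest quintile of cells 18.2% of young and 22.2% of aged HSCs were members, against 10.0% and 9.69% among the deepest quintile. The median share of fragments in peaks was close in members and other cells, at 83.3% and 82.9% in young HSCs and 81.3% and 81.0% in aged HSCs, and so was the share of fragments shorter than a nucleosome, at 60.1% and 60.0% in young HSCs and 55.1% and 54.8% in aged HSCs. Doublet marks were rarer in members, at 2.59% (1.57 to 4.02) against 4.48% (3.87 to 5.15) in young HSCs. In aged HSCs they were at 5.48% (3.67 to 7.82) against 7.67% (6.73 to 8.70), and the interval of members held 7.67%. The marks were not adjusted for depth, which was lower in members. Results with all cells thinned to one depth are given below where they bear on a result.

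The score had no gap between members and other cells. The median member carried 7 score fragments in each library, against 3 in the other young HSCs and 4 in the other aged HSCs, out of about 10000 fragments per cell. The last young cell inside the limit had 7 score fragments of 10871, and the first outside had 5 of 7766, so their scores were 6.439 and 6.438 fragments per 10000. In aged HSCs these scores were 5.8655 and 5.8647, from 9 of 15344 and 8 of 13641 fragments. Pooled over cells, the score was 7.75 in members and 3.58 in other cells of the young library, and 7.15 and 3.31 in the aged library.

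**Figure D1:**
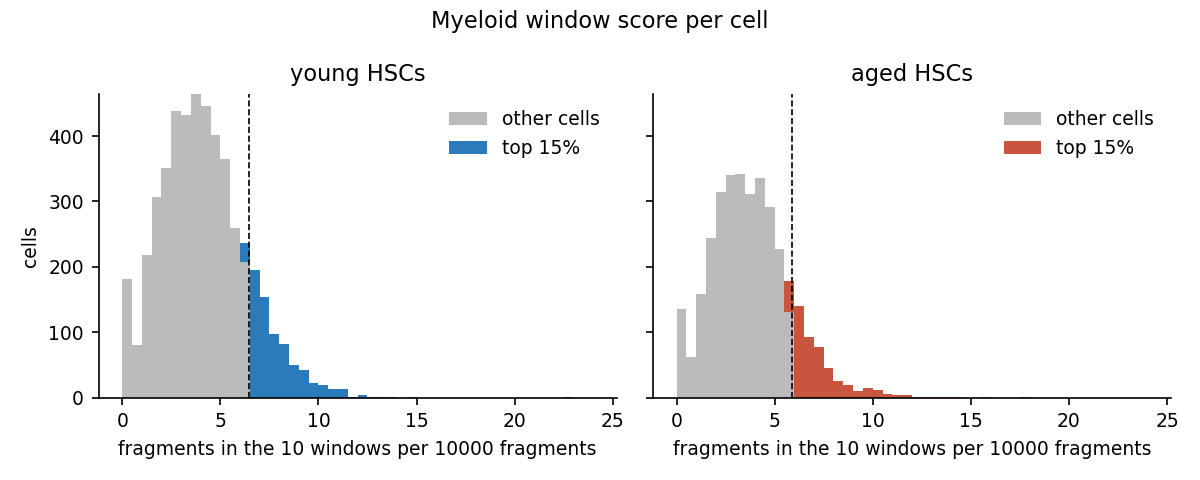
Number of cells (vertical axis) by myeloid window score in fragments per 10000 (horizontal axis) in young and aged HSCs, with members coloured, other cells in grey, and a dashed line at the limit (6.44 young, 5.87 aged). The members form the right flank of 1 continuous distribution in each library.

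The windows gave very unequal parts of the score. Elane gave the most, with 3689 of the young and 2925 of the aged score fragments (17.7% and 19.8%), followed by Csf1r with 15.3% and 14.8%. Irf8, Cebpe and Cebpa each gave between 12.5% and 13.8%, and Gfi1 and Csf3r gave between 9.72% and 11.1%. Mpo gave 4.80% and 3.42%, and the windows of S100a8 (234 and 178 fragments) and Ctsg (121 and 96 fragments) were nearly closed. The score was thus mostly made of the transcription factor and receptor loci and of Elane, whose window also holds the promoter of Cfd and part of Prtn3. The Csf3r window holds the promoter of Mrps15, a mitochondrial ribosomal protein gene, and the peak there was its largest, with 48.4% of the young and 47.1% of the aged fragments of the window.

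The 10 windows held 70 of the 165913 peaks called here. The largest peak of the Cebpe window, at chr14:54705642-54706334 (GRCm38), lies 6185 bp downstream of the Cebpe start site and held 1381 young and 883 aged fragments, 49.9% and 47.9% of the window. The largest peak of the Cebpa window, at chr7:35118027-35119448, lies 555 bp from its start site and held 1154 and 851 fragments. The Csf1r window was led by a peak within the gene with 1420 and 1042 fragments, and the Irf8 window by a promoter peak with 621 and 403 fragments. Mpo had no large promoter peak, with 46 young and 17 aged fragments in the peak at its start. The largest peak of the Mpo window lies within the neighbouring gene Lpo. It held 321 young and 136 aged fragments, 32.1% and 26.9% of the window, so levels of this window are in part those of Lpo.

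Consensus sites of C/EBP (TTGCNNAA) or PU.1 (GAGGAAGT) in the central 200 bp of peaks in the score windows are shown because these factors act at the genes of the score. C/EBP sites were found in 6 and PU.1 sites in 11 of the 70 peaks, and in 8.76% and 7.30% of all 147178 distal peaks outside the windows, both strands searched. Each run of 26 bases is reference sequence (RefSeq, GRCm38), given 5′ to 3′ on the strand of the site, with the consensus in capitals.
Cebpe downstream peak, C/EBP, chr14:54705984-54706009, plus strand: ccttcccagTTGCAGAAggccagcag
Cebpe downstream peak, C/EBP, chr14:54705966-54705991, minus strand: tgggaaggtTTGCAAAAcccctgcta
Cebpa downstream peak, C/EBP, chr7:35127065-35127090, minus strand: gaggcttggTTGCCCAAcacgtgcac
Gfi1 promoter peak, C/EBP, chr5:107725932-107725957, minus strand: aaggtaggtTTGCTGAActgctgtgc
Mpo upstream peak, C/EBP, chr11:87790238-87790263, minus strand: agctactggTTGCAAAAgatttctct
Mpo promoter peak, PU.1, chr11:87793551-87793576, plus strand: ggagagagaGAGGAAGTtgcctttgt
Csf3r intragenic peak, PU.1, chr4:126028162-126028187, plus strand: cacagaactGAGGAAGTtccttaggg
A match is a description of these letters and was not tied to binding.

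To see whether the 10 loci were raised together, each gene was measured in cells chosen again on the other 9 genes. Where a gene took part in the choice, its level in chosen cells was above that of other cells by a log2 ratio of 0.82 to 1.30 in young and 1.003 to 1.288 in aged HSCs, which the rule fixes. With the gene left out of the choice, the median log2 ratio over the 10 genes was -0.025 (-0.16 to 0.093) in young HSCs and -0.015 (-0.077 to 0.064) in aged HSCs. None of the 10 intervals left out 0 in either library (0 of 10 in each), and 3 young and 4 aged ratios were above 0. The aged median moved furthest under 3 alternatives, to -0.082 (-0.13 to 0.015) with the top 25%, -0.16 (-0.35 to 0.061) with thinned cells and -0.11 (-0.24 to -0.014) without the promoters of other genes. The label of high myeloid accessibility therefore holds for the sum that chose the cells, while a joint increase across the 10 loci was not seen, and the cells are named here by the rule alone.

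**Figure D2:**
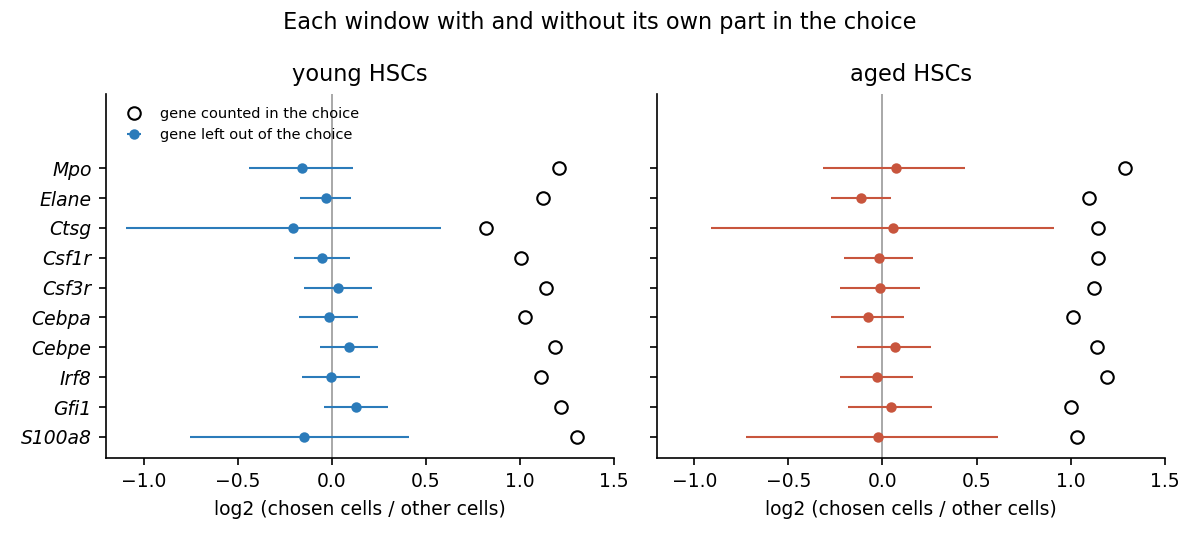
Log2 ratio of chosen cells to other cells (horizontal axis) at each score gene (vertical axis) in young and aged HSCs, with open circles where the gene took part in the choice and filled points, with 95% counting intervals, where cells were chosen on the other 9 genes. Open circles lie between 0.82 and 1.30 and filled points between -0.20 and 0.13.

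The markers that define the label gave the following levels in cells chosen without them. Mpo, the myeloperoxidase gene, stood at 18.2 fragments per 1000000 fragments of the group (FPM) in 733 chosen young cells and 20.3 in other cells, a log2 ratio of -0.16 (-0.44 to 0.11), and at 13.6 and 12.98 in aged HSCs, a ratio of 0.071 (-0.32 to 0.44). Cebpa stood at 54.4 and 55.1 in young HSCs, a log2 ratio of -0.017 (-0.18 to 0.14), and at 50.3 and 53.1 in aged HSCs, a ratio of -0.077 (-0.27 to 0.11). The receptor genes were as flat, with Csf1r at -0.052 (-0.20 to 0.095) and -0.017 (-0.20 to 0.16) and Csf3r at 0.034 (-0.15 to 0.21) and -0.012 (-0.23 to 0.20) in young and aged HSCs. For Cebpa, Csf1r and Csf3r the upper bounds were thus 0.21 or lower, whereas the Ctsg intervals, -1.09 to 0.58 and -0.91 to 0.91, allowed large changes either way. The highest ratio, that of Gfi1 in young HSCs at 0.13 (-0.043 to 0.30), was 0.043 (-0.18 to 0.26) in aged HSCs.

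The choice and the measurement were then made on different fragments of the same cells. Cells chosen on their odd-numbered fragments had 1.41-fold more score fragments among their even-numbered fragments in young HSCs (log2 ratio 0.49, 0.42 to 0.56) and 1.37-fold more in aged HSCs (0.45, 0.37 to 0.54), against 2.17-fold and 2.16-fold for the full choice. Odd and even fragments of a cell are neighbours in genome order, so those of 1 open stretch fall in both sets. Of 2 fragments of a cell in 1 window, 1 falls in each set, even if fragments were shared out among cells at random. Part of the excess is thus built into the split. The size of this part was not computed, so these ratios do not show that cells kept their rank. The same split was then made for each window. Cells with an odd-numbered fragment in a window had more even-numbered fragments in that same window. The median log2 ratio over the 10 windows was 1.24 in young and 1.18 in aged HSCs. The alternation raises this ratio by itself, so it does not measure a same-window effect. Fragments in the other 9 windows are not tied to the first window by the alternation, and there the median was -0.0066 and -0.019.

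A local excess was therefore measured without this split, and it was short in reach. Pairs of fragments from 1 cell were counted against an expected number. This is what the depth of the cells would give if fragments were shared out among cells at random. A fragment can sit in several pairs, so the intervals of these ratios, here and below, are too narrow. In the score windows, pairs with midpoints less than 200 bp apart were 1.53 (1.44 to 1.63) times the expected number in young and 1.36 (1.26 to 1.47) times in aged HSCs. The ratio fell to 1.17 and 1.26 between 200 bp and 1 kb, 1.114 and 1.097 between 1 and 5 kb, and 0.993 (0.958 to 1.03) and 0.990 (0.949 to 1.03) between 5 and 20 kb. All 14173 genes outside the score with enough fragments had the same order of ratios over the first distances, 1.22, 1.12 and 1.05 in young and 1.19, 1.13 and 1.06 in aged HSCs, so a local excess was not particular to the myeloid loci. Between 5 and 20 kb these genes stood at 1.024 (1.023 to 1.025) and 1.036 (1.035 to 1.037), above the score windows. The median over single genes was 1.26 and 1.22 at less than 200 bp, with 5 to 95 percentiles of 0.980 to 2.65 and 0.953 to 2.21.

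Between loci on different chromosomes there was no such excess. Over the 44 pairs of score windows on different chromosomes, 43481 same-cell pairs of fragments in young HSCs gave 1.003 (0.994 to 1.01) times the expected number, and 31686 in aged HSCs gave 0.985 (0.974 to 0.996) times. The median over all pairs of genes on different chromosomes was 0.996 and 0.998. Counting intervals, which take pairs of fragments as independent, left out 1 for 3 pairs in young and 5 pairs in aged HSCs. They did so on the same side in both libraries for 1 pair. This pair was Mpo with Cebpe, at 1.12 (1.04 to 1.21) times in young HSCs from 714 same-cell pairs and 1.14 (1.03 to 1.27) times in aged HSCs from 365. Mpo with Elane, the other primary granule gene with enough fragments, was at 0.958 (0.894 to 1.03) and 0.986 (0.901 to 1.08).

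**Figure D3:**
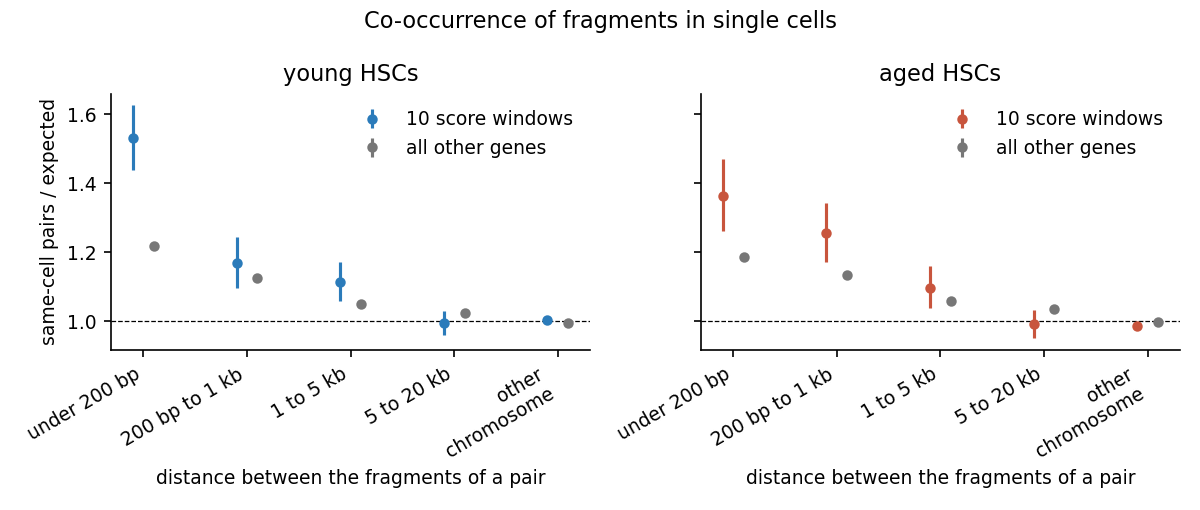
Same-cell fragment pairs over the number expected from depth (vertical axis) by the distance between the fragments (horizontal axis) in young and aged HSCs, for the 10 score windows (coloured, with 95% counting intervals) and all other genes (grey). The ratio falls from 1.53 and 1.36 in the score windows at less than 200 bp to about 1 from 5 kb on and between chromosomes.

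Regions beside the score windows, which the rule did not use, were measured next. Within the first 10 kb beyond the windows members stood at 124 and other cells at 125 FPM in young HSCs, a log2 ratio of -0.014 (-0.12 to 0.089), and at 113 and 112 in aged HSCs, a ratio of 0.012 (-0.12 to 0.14). From 10 to 50 kb beyond, the ratios were 0.034 (0.0011 to 0.067) and 0.040 (-0.00077 to 0.080), and from 50 to 100 kb they were 0.0064 (-0.031 to 0.044) and 0.058 (0.014 to 0.10). No flank thus differed by a log2 ratio of more than 0.058, and the flank next to the windows differed least in the aged library.

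Genes outside the score gave no common set. Members were compared with other cells of their own library over 14173 protein-coding genes whose windows did not overlap the score and held at least 1000 fragments in each library. The log2 ratios had a standard deviation across genes of 0.081 in young and 0.098 in aged HSCs around medians of 0.0034 and 0.0082. Ratios of the 2 libraries, which share no cells, had a Pearson correlation across genes of 0.034 and a Spearman correlation of 0.030, given as a description, since genes share libraries and depth. In the young library 124 genes (0.875%) were past 0.2 and 174 (1.23%) past -0.2, and in the aged library 309 (2.18%) and 351 (2.48%). Both libraries were past 0.2 for 10 genes (0.0706%) and past -0.2 for 7 genes (0.0494%). These counts moved with the setting, to 18 higher and 44 lower genes with the top 10%, 6 and 17 without the promoters of other genes in the score windows, and 6 and 13 when scaled to in-peak fragments. Lower genes outnumbered higher genes in each of the 10 alternatives that gave both counts, but not in the reported setting. All settings draw on the same 2 libraries, so no direction was read from this.

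**Figure D4:**
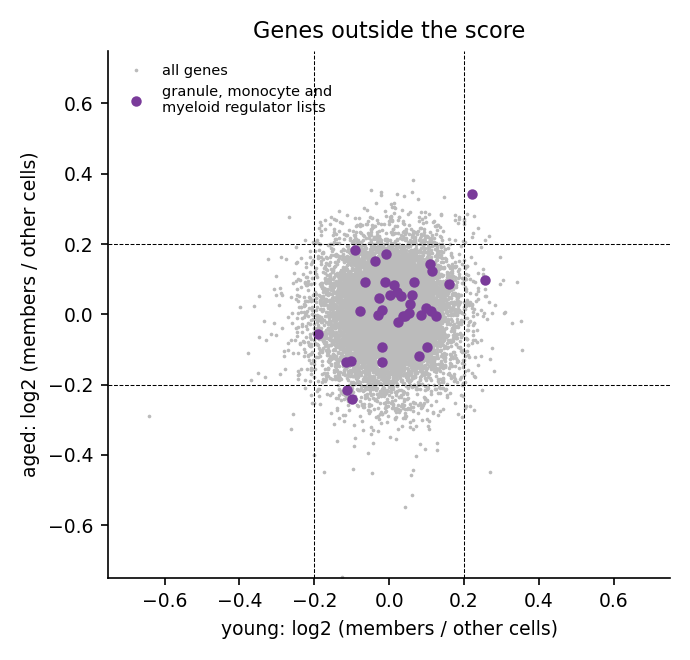
Log2 ratio of members to other cells in young HSCs (horizontal axis) and aged HSCs (vertical axis) for 14173 genes outside the score, with granule, monocyte and myeloid regulator genes in purple and dashed lines at the threshold of 0.2. The cloud is round, and Mpeg1 is the 1 purple point past the threshold in both libraries.

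Among the 10 genes past the threshold on the higher side was Mpeg1, the gene of perforin-2, a pore-forming protein of macrophages. It stood at 28.0 FPM in members and 23.997 in other cells of the young library, a log2 ratio of 0.22 (-0.0057 to 0.44), and at 35.5 and 28.0 in the aged library, a ratio of 0.34 (0.11 to 0.57). Clec2d, the gene of a C-type lectin that is a ligand of a natural killer cell receptor, stood at 41.3 and 35.2 in young and 41.2 and 34.0 in aged HSCs, log2 ratios of 0.23 and 0.28. Aldoc, a glycolytic aldolase gene, had ratios of 0.27 and 0.22, and Matn4, a matrix protein gene, had ratios of 0.20 and 0.21. The others were Ccn5, Stk26, Pin1rt1, B3gnt5, Rasl11b and Sstr4, with ratios between 0.20 and 0.29.

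The 7 genes on the lower side were Cntnap5c, Gm21958, Tmigd1, Slc5a3, Dach2, Cdr2 and Epha6. Cntnap5c, a neuronal adhesion gene, was lowest, with 13.7 FPM in members and 21.4 in other cells of the young library (log2 ratio -0.64, -0.96 to -0.34) and 25.3 and 30.9 in the aged library (-0.29, -0.57 to -0.024). Tmigd1 had ratios of -0.26 and -0.28, and Slc5a3, a myo-inositol transporter gene, had ratios of -0.21 and -0.23. Nefm, Tmem165 and Arfgap1, which completed the 10 lowest genes, were not past the threshold in both libraries. The intervals left out 0 in both libraries for 6 of the 10 highest and 3 of the 10 lowest genes. When cells were thinned to 4000 fragments and chosen anew, 4 of the 10 highest genes were above 0 in both libraries and 8 of the 10 lowest were below 0 in both. Mpeg1 was 1 of the 6 of the 10 highest that did not keep its side, with thinned log2 ratios of -0.10 and -0.18.

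The lists of myeloid genes lay close to the median of all genes. The 19 granule and neutrophil genes outside the score had a median log2 ratio of 0.062 (-0.035 to 0.11) in young and 0.054 (-0.14 to 0.14) in aged HSCs, with 13 and 11 genes above 0 and none of the 7 tested past the threshold in both libraries. Their summed level was 527 FPM in members and 498 in other cells of the young library, a log2 ratio of 0.081 (0.030 to 0.13), and 510 and 495 in the aged library, a ratio of 0.044 (-0.017 to 0.10). Mmp9, the gelatinase gene of late granules, had 82.3 against 68.9 FPM (log2 ratio 0.26, 0.12 to 0.39) in young HSCs and 75.4 against 70.4 in aged HSCs (0.098, -0.061 to 0.26). Lcn2, a gene of the secondary granules, had ratios of 0.11 (-0.025 to 0.24) and 0.14 (-0.018 to 0.30). Chil3 and Ms4a3, both marked in granulocyte-monocyte progenitors, had ratios of -0.19 and 0.19 in young and -0.88 and -0.56 in aged HSCs, from 8 and 27 fragments in aged members.

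The other myeloid lists had smaller or similar medians. The 19 monocyte and dendritic cell genes had medians of -0.0086 and 0.018, with Mpeg1 the 1 gene past the threshold, while Ccr2, a chemokine receptor gene of monocytes, had ratios of 0.065 and 0.20, and Fcgr3, an Fc receptor gene, had ratios of -0.098 and -0.24. The 16 myeloid regulator genes had medians of 0.031 and 0.0071, led by Myb, a regulator of progenitor growth, at 0.16 (0.038 to 0.28) and 0.086 (-0.067 to 0.24), and Nfil3, at 0.11 and 0.12. Their summed ratio was 0.034 (0.0075 to 0.061) in young and 0.019 (-0.013 to 0.050) in aged HSCs. The 15 cytokine receptor genes had medians of 0.024 and 0.052, with Flt3, the receptor whose protein was absent from the sorted surface, at 0.036 and 0.11, and Csf2rb2, a subunit of the interleukin-3 receptor, at -0.036 and -0.29. None of these 4 lists had a median whose interval left out 0.

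HSC genes had a median of 0.016 (-0.0082 to 0.030) in young and -0.0044 (-0.026 to 0.040) in aged HSCs, and a summed level of 3458 FPM in members against 3418 in other cells of the young library and 3573 against 3567 in the aged library. The genes of the list varied around this sum. Procr, a surface marker gene of HSCs, had log2 ratios of 0.077 (-0.058 to 0.21) in young and 0.18 (0.026 to 0.33) in aged HSCs, while Slamf1, which encodes CD150 of the sort, had 0.012 (-0.16 to 0.18) and -0.13 (-0.31 to 0.050), and Ndn had -0.27 (-0.73 to 0.16) and -0.41 (-0.97 to 0.10). Erythroid genes had medians of -0.072 (-0.13 to 0.045) and -0.058 (-0.13 to -0.032), with 7 and 4 of 18 genes above 0 and 0 past the threshold on the lower side in both libraries, and summed log2 ratios of -0.038 (-0.074 to -0.0011) and -0.044 (-0.087 to -0.00045), the 1 list of 17 whose summed intervals left out 0, by a narrow margin, on the same side in both libraries. Megakaryocyte genes had medians of -0.022 (-0.080 to 0.024) and -0.040 (-0.066 to -0.0055), with 7 and 4 of 18 genes above 0. Lymphoid progenitor genes had medians of 0.021 and 0.040, and cell cycle genes 0.014 and 0.065.

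Genes of cells that a sort could let through were measured in the same way. Mature macrophage genes had medians of 0.031 (-0.30 to 0.096) and 0.11 (-0.076 to 0.26), the highest aged median of the 17 lists, and 184 FPM in members against 183 in other cells of the young library and 205 against 192 in the aged library. B cell genes had medians of 0.056 and -0.038, T and natural killer cell genes -0.0056 and -0.032, genes of mast cells, basophils and eosinophils -0.019 and 0.074, and niche and endothelial genes 0.013 and -0.036. Immediate early genes had medians of 0.0081 and 0.051, interferon-stimulated genes 0.0078 and -0.019, and genes known to rise in aged HSCs 0.028 and -0.0073. Across the 17 lists, medians ran from -0.072 to 0.062 in young and from -0.058 to 0.11 in aged HSCs, and 1 of 190 tested entries was past the threshold in both libraries on the higher side and 0 on the lower side, against 0.0706% and 0.0494% of all genes tested.

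Distal peaks were used to ask whether sites of myeloid factors were more open in members. The 12891 distal peaks with a C/EBP consensus took a share of distal fragments in members that differed from that in other cells by a log2 ratio of 0.0013 (-0.0049 to 0.0075) in young and 0.0070 (-0.000033 to 0.014) in aged HSCs. With the consensus anywhere in the peak the ratios were 0.00074 (-0.0030 to 0.0045) and 0.0084 (0.0041 to 0.013), so the aged interval then left out 0. Peaks with the PU.1 consensus had ratios of 0.014 (0.0067 to 0.020) and 0.018 (0.0098 to 0.026), and PU.1 was the 1 motif of 16 whose intervals left out 0 on the same side in both libraries. Its size was about 1% of the level, and the median over single PU.1 peaks was 0.015 (-0.00074 to 0.025) and 0.016 (-0.0016 to 0.033). GATA sites (AGATAAG), bound by GATA factors, had ratios of -0.017 (-0.026 to -0.0082) in young and -0.00056 (-0.011 to 0.0098) in aged HSCs. The other motifs lay between -0.014 and 0.016.

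By the correlation of the 2 libraries, single distal peaks repeated no better than genes did. Ratios of the 2 libraries had a Pearson correlation of 0.0099 across 12355 distal peaks with at least 300 fragments in each library. Of these peaks, 311 were past 0.2 and 202 past -0.2 in both libraries. The standard deviation across peaks was 0.17 in young and 0.20 in aged HSCs, wider than across genes. Counts of peaks past 0.2 can therefore not be set against those of genes. The peak with the highest lower ratio lies within Ada, the adenosine deaminase gene, at chr2:163744859-163745847 (GRCm38), with log2 ratios of 0.52 (0.20 to 0.83) and 0.49 (0.11 to 0.86). The next peaks lay within Add3 (0.44 and 0.63), beyond Hs3st2 (0.42 and 0.54), within Parp11 (0.52 and 0.40) and within Maml2 (0.40 and 0.62). None held a C/EBP or PU.1 consensus in its centre.

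Scores of other lineages chose members about as often as other cells. In young HSCs 114 of 733 members (15.6%, 13.004 to 18.4) were also in the top 15% by lymphoid genes, against 14.9% of other cells, 114 (15.6%) by erythroid genes against 14.9%, and 123 (16.8%, 14.1 to 19.7) by megakaryocyte genes against 14.7%. In aged HSCs the shares were 15.7% (12.6 to 19.1) against 14.9% for lymphoid genes, 12.7% (9.96 to 15.9) against 15.4% for erythroid genes and 15.7% against 14.9% for megakaryocyte genes. All intervals held 15%, the share that the rule gives in each library as a whole. In a reduction of all peaks outside the score, members made up 17.9% of the 20 nearest neighbours of members and 17.2% of those of other cells in young HSCs, and 20.4% and 19.2% in aged HSCs. With cells thinned to 4000 fragments these shares were 13.5% and 13.02%, and 12.4% and 12.4%. Members thus lay scattered among the other cells rather than in a region of their own.

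The window with the most score fragments varied among members, which had a median of 7 score fragments each in both libraries. Elane led most often and also gave the largest part of the score, 17.7% in young and 19.8% in aged HSCs. Whether members differed in this by more than counting would give was not tested. In young HSCs 113 members (15.4%) had more score fragments at Elane than at any other window, 76 (10.4%) at Irf8, 73 (9.96%) at Cebpe and 66 (9.004%) at Csf1r, while 275 (37.5%) had a tie between windows. A single window held at least 50% of the score fragments in 17.9% of young and 27.2% of aged members, against 52.0% and 51.2% of other cells, which had fewer score fragments each. In aged HSCs Elane led in 101 members (19.8%), Csf1r in 52 (10.2%), Cebpe in 43 (8.41%) and Cebpa in 42 (8.22%), with ties in 173 (33.9%). Mpo led in 13 young and 2 aged members, and S100a8 in 1 and 0. At least 3 fragments in a single window were found in 52.1% of young and 47.7% of aged members, against 12.7% and 14.9% of other cells, a difference that the choice on the sum favours.

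Between ages, the intervals of 5 of the 10 score windows lay below 0 in the aged library and those of the other 5 held 0. A typical gene outside the score was also below 0 in this comparison, at -0.066 in members and -0.078 in other cells (medians). An interval below 0 is therefore not by itself a loss particular to these windows. How many other genes had such an interval was not counted. Over all filtered cells, the Mpo window held 20.0 FPM in young and 13.1 in aged HSCs, a log2 ratio of aged to young of -0.61 (-0.77 to -0.46). The Gfi1, Cebpe, Irf8 and Csf1r windows were lower by a log2 ratio of -0.24 (-0.33 to -0.14), -0.21 (-0.30 to -0.13), -0.20 (-0.29 to -0.12) and -0.17 (-0.25 to -0.092), in that order. Elane (0.038, -0.032 to 0.11), Csf3r (0.035, -0.059 to 0.13) and Cebpa (-0.061, -0.14 to 0.023) had intervals that held 0. With 1 library per age, age and library cannot be told apart.

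The values in members and other cells are given side by side as a description, since these windows chose the members. Mpo stood at 39.0 FPM in young and 26.8 in aged members (log2 ratio -0.54, -0.85 to -0.24) and at 16.9 and 11.0 in other cells (-0.62, -0.81 to -0.44). Gfi1 had a ratio of -0.39 (-0.58 to -0.19) in members and -0.17 (-0.28 to -0.057) in other cells, and Cebpe had ratios of -0.23 and -0.19. The levels in members were set by a separate limit in each library, and the sum of the 10 windows had a log2 ratio of -0.12 (-0.18 to -0.056) in members and -0.11 (-0.15 to -0.078) in other cells. The median over all genes outside the score was -0.066 in members and -0.078 in other cells.

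**Figure D5:**
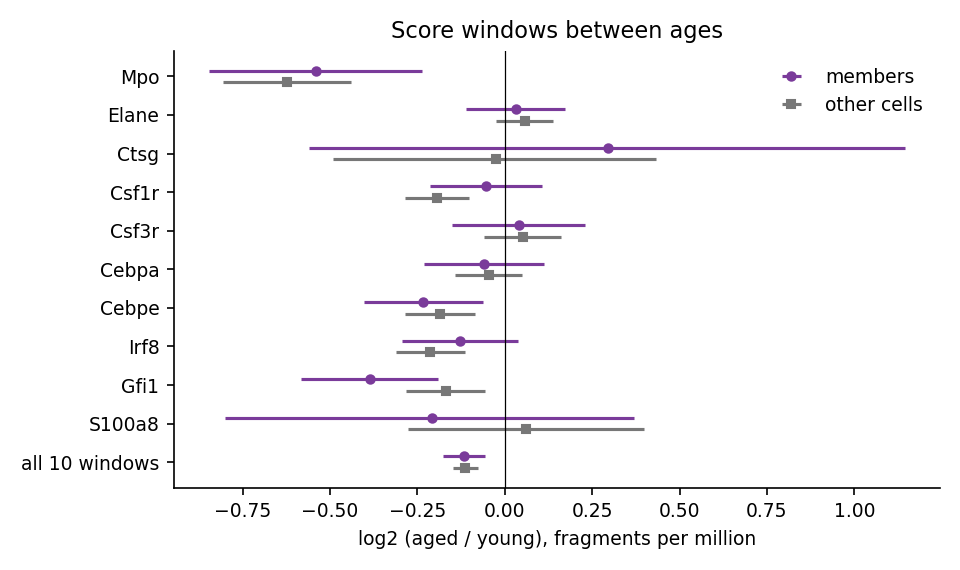
Log2 ratio, aged over young, of the scaled fragment level (horizontal axis) at each score window and their sum (vertical axis), for members (purple circles) and other cells (grey squares), with 95% counting intervals. Mpo is lowest in both sets of cells, at -0.54 and -0.62, and the sums lie at -0.12 and -0.11.

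Outside the score, 14397 genes had at least 300 fragments in the members of both libraries together, and 169 (1.17%) were higher and 43 (0.299%) lower in aged members by a log2 ratio past 0.5. All 169 higher genes were above 0 in other cells too, and 42 of the 43 lower genes were below 0. Kcnb2, a potassium channel gene, stood at 24.99 FPM in young and 94.3 in aged members (log2 ratio 1.91, 1.66 to 2.17) and at 25.2 and 96.3 in other cells (1.93). Rhbdl2, Wwtr1 (the co-activator TAZ) and Kcnn2 had ratios of 1.76, 1.42 and 1.32 in members and 1.44, 1.24 and 1.21 in other cells. Lmo3, Ros1, Cntn1, Khdrbs2, Rorb and Unc5d followed, between 1.14 and 1.29 in members and 0.90 and 1.30 in other cells. Rhbdl2, Lmo3, Ros1, Cntn1, Khdrbs2 and Unc5d had 103, 118, 116, 135, 128 and 144 fragments in young members. These 6 genes passed the minimum only with their higher aged counts, so their place in this order is in part set by the filter. The counts of 169 and 43 may be in part set by it too, since a gene could pass through the age where it was high. Rhbdl2, Ros1 and Khdrbs2 had 845, 916 and 921 fragments in all young cells, and Rgs1, named below, had 995 in all aged cells. These genes fall short of the minimum per library used for members against other cells.

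On the lower side, Cdc42bpg had 180 FPM in young and 97.5 in aged members (log2 ratio -0.88, -1.03 to -0.73) against 175 and 86.9 in other cells (-1.01, -1.07 to -0.95). Tmem185b had ratios of -0.90 (-1.23 to -0.59) in members and -0.18 (-0.30 to -0.068) in other cells, from 290 young and 112 aged fragments in members. Rgs1, a regulator of G protein signalling, had ratios of -0.79 and -0.47, Nsg2 of -0.67 and -0.42, and Adgra2 of -0.66 and -0.53. Genes known to rise in aged HSCs had a median ratio of 0.34 in members and 0.39 in other cells, while the granule and neutrophil list had a median of -0.13 and -0.044.

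The regions that the study had found differentially accessible (DARs) in bulk ATAC-seq of young and aged HSCs were taken as a further readout. The 428 open DARs held 14.1 fragments per 10000 in young and 29.1 in aged members, a log2 ratio of 1.05 (1.01 to 1.08), and 14.2 and 29.9 in other cells, a ratio of 1.07 (1.06 to 1.09). The 118 closed DARs on assembled chromosomes, with 1 on an unplaced contig not used here, held 13.6 and 10.8 in members, a ratio of -0.33 (-0.38 to -0.29), and 13.4 and 10.3 in other cells, a ratio of -0.38 (-0.39 to -0.36). Within the young library the log2 ratio of members to other cells was -0.0090 (-0.040 to 0.022) at open and 0.017 (-0.014 to 0.049) at closed DARs, and within the aged library it was -0.034 (-0.060 to -0.0096) and 0.059 (0.018 to 0.10). Between ages, the order of members and other cells at open DARs turned with the setting, with ratios of 1.087 (1.03 to 1.15) in members and 1.074 (1.05 to 1.098) in other cells when cells were thinned, and of 1.073 and 1.069 with the top 10%.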

How the data were processed

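Single-cell ATAC-seq of 1 library of young and 1 of aged HSCs was analysed. Groups came from the sample labels, and members and gene lists were chosen with earlier results of these data known. The submitters' processing notes name Cell Ranger ATAC, Signac and the mm10 build. The authors deposited unique fragments with their barcodes and a table of counts per barcode, without normalization, which also flags called cells. The methods name a later release of the program than the layout of this table. Fragments listed per filtered cell equalled the table's counts. The libraries held 53786133 young and 48333115 aged fragments.

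Cells were called barcodes (5028 young, 3694 aged) with 3000 to 20000 in-peak fragments. A fragment counted once per region where either of its ends lay in the region. GENCODE M21 genes and the GRCm38 sequence, the build of mm10, were used. Ratios are log2 of fragments per fragment outside the score windows, with a pseudocount of 0.5 for single genes. Ratios of sums have intervals from the exact binomial share (95%). Medians have order-statistic intervals and shares exact binomial (Clopper-Pearson) intervals. Ratios of same-cell pairs have exact Poisson intervals, which take pairs as independent. A gene was called where both libraries passed a log2 ratio of 0.2 in 1 direction, and past 0.5 between ages. No p-values are given.

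Peaks were called on cut sites in windows of 151 bp against a 10 kb background (Poisson, q of 0.001) and merged over libraries, and distal peaks lay over 1 kb from a protein-coding start. Doublet marks rest on loci covered by 3 or more fragments of 1 cell (q of 0.01), and marked cells were kept. Neighbours came from components 2 to 30 of the binarised peaks after TF-IDF. Expected same-cell pairs are all pairs times the summed squared depth shares of cells. Named outside genes were the 10 with the highest lower ratio and the 10 with the lowest higher ratio of the 2 libraries, list examples were up to 4 highest and 2 lowest mean ratios, named peaks the 5 highest distal and the largest in the score windows, and named genes between ages the 10 highest and 5 lowest, windows that overlap counted once. Flanks, same-cell pairs, the split by window and depth quintiles were added after the data were seen. Of DARs, coordinates and direction alone were taken from the study's list. Calculations were tested on simulated data and run in Python 3.11.15 with numpy 2.4.6, scipy 1.17.1 and scikit-learn 1.9.0. One result that met a rule for a closer look is not reported here.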

Additional observations from a re-analysis of the deposited data

How the results depend on the processing

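Of the 92 values recomputed under the alternatives, 68 stayed within their interval or within 1.5 times the count, and 24 moved. None changed sign against an interval that left out 0. The held-out, granule and neutrophil, and C/EBP results had intervals that held 0, so a change of sign there was not marked. With the top 25%, for example, the young held-out median went from -0.025 to 0.028. The young granule and neutrophil median then went from 0.062 to -0.0071. The counts of genes past the threshold moved most: 18 higher and 44 lower with the top 10%, 2 and 3 with the top 25%, 6 and 17 without the promoters of other genes in the score windows, 6 and 13 when scaled to in-peak fragments, 358 and 837 without a minimum of fragments, 260 and 261 at a log2 ratio past 0.1, and 3 and 5 with thinned cells, 6 and 10 without doublets and 5 and 8 in windows of 1 kb around the start site, against 10 and 7 as reported. The held-out median of aged HSCs was -0.082 with the top 25%, -0.16 with thinned cells and -0.11 (-0.24 to -0.014) without other promoters. The granule and neutrophil median of young HSCs was 0.18 (-0.027 to 0.70) in windows around the start site. With thinned cells, 12.3% of aged members were in the top by megakaryocyte genes, the ratio at open DARs was 1.09 in members and 1.07 in other cells, against 1.05 and 1.07 unthinned, and members made up 13.5% and 12.4% of the neighbours of young and aged members. Open DARs in other cells had a ratio of 1.11 when scaled to in-peak fragments. Why these values moved was not tested, except that fewer fragments per gene widen the ratios where no minimum was set. At a median of 4 score fragments per cell, depth limits what the rank of any single cell can show, and the windows of Ctsg and S100a8 were too thinly covered to show a change of the size that the better covered windows could show. No paired analysis was possible because the result comes from no test and each age has 1 library.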

Other observations

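Counts in the windows of rarely opened granule genes were small, and some of their same-cell pairs changed side between the libraries. Mpo with Ctsg had 19 same-cell pairs of fragments against 27.9 expected in young HSCs and 26 against 16.6 in aged HSCs. Ctsg with S100a8 had 4 against 6.51 and 13 against 5.86. Mpo with S100a8 was above the expected number in both libraries. It had 77 pairs against 53.9 in young HSCs (ratio 1.43, 1.13 to 1.79) and 39 against 30.8 in aged HSCs (1.27, 0.90 to 1.73). The granule and neutrophil list outside the score, paired among its own genes, stood at 1.01 (1.003 to 1.02) times the expected number in young and 0.999 (0.990 to 1.01) times in aged HSCs.

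Score windows paired with HSC genes on other chromosomes stood at 0.991 (0.989 to 0.993) times the expected number in young and 0.985 (0.983 to 0.987) times in aged HSCs, where the median over all gene pairs was 0.996 and 0.998. Pairs with monocyte and dendritic cell genes stood at 0.992 and 0.993 times, and with erythroid genes at 0.995 and 0.987 times. With megakaryocyte genes they stood at 1.001 and 0.986 times, and with granule and neutrophil genes at 1.002 and 0.995 times. With lymphoid progenitor genes they stood at 1.001 (0.997 to 1.01) and 1.003 (0.998 to 1.01) times. HSC genes paired among themselves, without the score windows, stood at 0.991 (0.990 to 0.993) times in young and 0.990 (0.988 to 0.991) times in aged HSCs.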
